A study of Mus musculus with 11 samples.

Results

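Yolk sacs of mouse embryos whose Hand1 locus carries Hand2 on both chromosomes, replacing Hand1, were compared with yolk sacs of control embryos at embryonic day 9.5. The 4 H1H2H2 libraries (H1H2H2 8 to 11, genotype Hand1 H2/H2) and the 4 control libraries (control 1 to 4, genotype Hand1 fx/+, which is a floxed allele over a normal allele) were 8 of the 11 bulk RNA-seq libraries of the series. The other 3 libraries (H1CKO 5 to 7) come from embryos with floxed Hand1 on both chromosomes and a Cre recombinase driven by T, per their titles, and they are given beside the comparison only where they bear on it. Their library names read H1KOH1fx in place of fx/fx, so the labels of H1CKO disagree on the second Hand1 allele. The library names of the controls read WT, while their titles give Hand1 fx/+. No Cre is named for the control or the H1H2H2 libraries. The labels give no strain, litter or batch, so a difference of strain or litter between the groups cannot be told apart from the genotype. All genes that passed a filter on low counts were tested, 14671 of the 15061 in the file.

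The yolk sac is the membrane that encloses the embryo and feeds it before the placenta works. Its outer layer, the visceral endoderm, takes up maternal proteins and lipids, breaks them down in lysosomes, and secretes lipoproteins and plasma proteins. Its inner layer, the extraembryonic mesoderm, forms the vessels, the first red blood cells, a mesothelium and smooth muscle. HAND1 and HAND2 are closely related basic helix-loop-helix transcription factors that pair with other factors of that family and bind DNA. In the yolk sac Hand1 is active in the mesoderm, and mouse embryos without it die with failing yolk sac vessels and heart. A Hand1 allele that carries Hand2 tests how far the related factor can stand in at the same locus.

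Hand1 (mm10 chr11:57828713-57832147) fell in H1H2H2. Its level in CPM (counts scaled to the library's depth with factors from the trimmed mean of M values, TMM) was 58.1, 91.1, 41.9 and 31.1 in control 1 to 4 and 15.2, 4.35, 8.59 and 9.97 in H1H2H2 8 to 11. The groups did not overlap, and H1H2H2 8 held the most Hand1 of its group. The means were 55.5 ± 26.2 and 9.54 ± 4.49 CPM (SD, n = 4 each), and edgeR's quasi-likelihood test with Benjamini-Hochberg adjustment over all genes gave a log2 fold change -2.55 with SE 0.387, adjusted p = 0.00482. In the H1CKO libraries Hand1 stood at 10.8, 6.18 and 5.95 CPM, and the difference between the mutant groups did not pass (adjusted p = 0.541). The file gives 1 count per gene, so which part of the altered locus gave the remaining Hand1 reads was not analysed here.

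Hand2 (mm10 chr8:57320983-57324517), the inserted gene, was 43.5, 42.3, 47.2 and 31.7 CPM in control and 81.03, 23.6, 35.9 and 33.7 CPM in H1H2H2. H1H2H2 8 lay above the control range, H1H2H2 9 below it and the other 2 within it. The test gave a log2 fold change 0.08 with SE 0.3, adjusted p = 0.873, so a rise of Hand2 transcript over control was not detectable. Without H1H2H2 8 the log2 fold change was -0.42 (adjusted p = 0.0751). Counts of the inserted and the native Hand2 copies, if both were counted, are added together in this file, and 19.6% of the exon bases of Hand2 are shared with Hand2os1, a gene on the other strand. H1CKO held 70.5, 72.8 and 91.8 CPM, more than H1H2H2 (log2 difference -0.85, SE 0.319, adjusted p = 0.0329). All 3 H1CKO libraries were male by Xist and Y-linked transcripts. They also held 23 cardiac markers at 4500 to 11700 summed CPM, against 54.8 to 247 in control and 43.1 to 89.5 in H1H2H2. Neural and somitic markers stood at 308 to 343 there, against 49.7 to 55.9 and 43.3 to 68.7. The part of these differences in any gene's value in H1CKO was not tested.

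**Figure D1:**
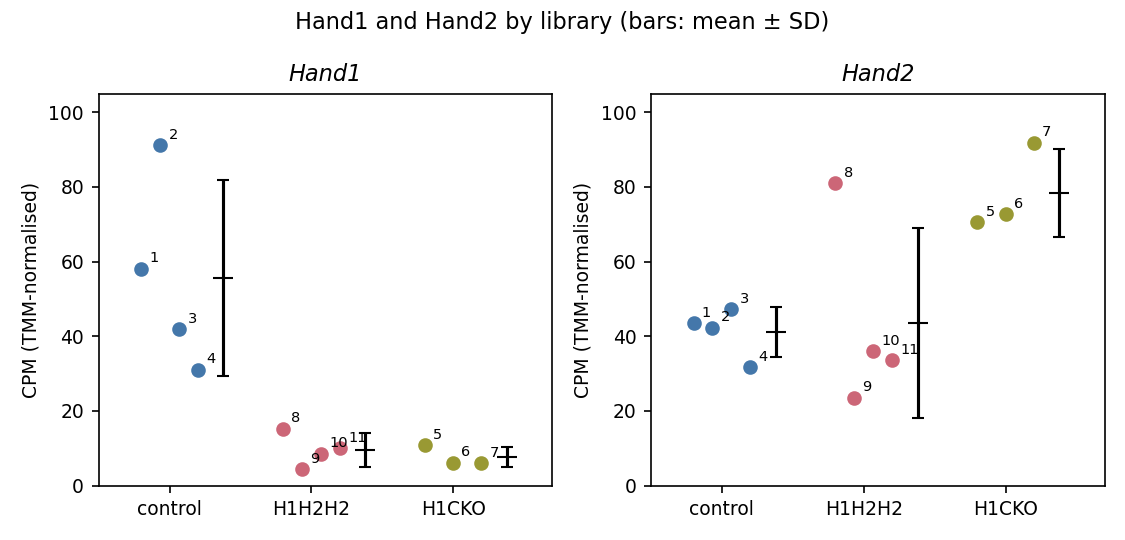
Hand1 and Hand2 in CPM (TMM-normalised, y axis from 0) for each library of the 3 groups; numbers are replicate numbers, and black bars show the mean and SD. Hand1 is low in all H1H2H2 libraries and all H1CKO libraries, while Hand2 in H1H2H2 is spread around the control values, with H1H2H2 8 the highest of its group.

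The libraries held 13948560 to 15465289 counts in control and 14420211 to 16824228 in H1H2H2. Of these libraries, 3 stood apart. H1H2H2 8 stood between the groups on the first principal component of the 8 libraries (39.38% of the variance), at -2.75, with controls from -38.1 to -13.4 and H1H2H2 9 to 11 from 26.4 to 49.8. Control 2 and H1H2H2 9 held more transcript of 13 parietal endoderm markers, 17100 and 13200 summed CPM against 3790 to 4350 in the other 6, and more of 12 trophoblast markers, 328 and 231 against 82.2 to 98.8. Xist and Y-linked transcripts put 3 females and 1 male among the controls and 1 female and 3 males among H1H2H2. The names of control 1 and control 2 share a yolk sac number, so both may come from 1 yolk sac. The part of these differences in the results was not tested beyond the values given with and without those libraries.

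In all, 2443 of 14671 genes (16.7%) passed at an adjusted p of 0.05, 1392 of them higher (9.49%) and 1051 lower (7.16%) in H1H2H2. Most changes were small: 103 of the higher and 287 of the lower genes changed by at least 2-fold. Libraries of the groups did not overlap at all for 1614 genes higher (11.0%) and 1174 genes lower (8.00%) in H1H2H2. Leaving out H1H2H2 8 raised the count to 5055 of 14629 (34.6%), 2477 higher (16.9%) and 2578 lower (17.6%), and held 2408 of the 2443 calls, none with the opposite sign. Leaving out control 2 and H1H2H2 9 instead left 330 of 14546 (2.27%), 144 higher (0.990%) and 186 lower (1.28%). A gene group is read against these shares, and genes whose call holds in each of the 19 alternative settings that tested them are preferred as examples. In a bulk sample, fewer cells of a type and less RNA per cell cannot be told apart.

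Genes of cholesterol synthesis and uptake were low in every H1H2H2 library. Of the 25 listed members, 20 were lower and 0 higher in H1H2H2, against 7.16% of all genes lower, and their median log2 fold change was -0.813 against -0.0135 over all genes. These genes build cholesterol from acetyl-CoA or bring it in with lipoprotein particles, and most are switched on together by SREBP2, the transcription factor encoded by Srebf2, when the endoplasmic reticulum runs low in sterol. The count stayed between 17 and 21 lower over all 19 alternatives, 20 without H1H2H2 8 and 19 without control 2 and H1H2H2 9. The mean level of the list, relative to the control mean, was -0.828, -0.913, -0.869 and -0.941 (log2) in H1H2H2 8 to 11 and -0.085, -0.453, 0.343 and 0.195 in control 1 to 4. H1H2H2 8 was as low as the other 3 here, and the groups did not overlap.

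Promoter windows of 3 of the members that fell are shown because SREBP2 is known to bind near the start of many genes of this pathway. They are the 250 bases before the start, from RefSeq on GRCm38.p6, 5′ to 3′ on the gene's strand, with capitals at matches on either strand to the sterol regulatory element TCACNCCAC and to the CCAAT box.
Hmgcs1, chr13:119690101-119690350, plus strand: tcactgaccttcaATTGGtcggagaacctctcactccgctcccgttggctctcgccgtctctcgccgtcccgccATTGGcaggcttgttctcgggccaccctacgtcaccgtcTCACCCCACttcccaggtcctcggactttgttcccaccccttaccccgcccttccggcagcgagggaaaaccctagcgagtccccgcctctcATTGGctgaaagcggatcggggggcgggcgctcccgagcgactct
Insig1, chr5:28071162-28071411, plus strand: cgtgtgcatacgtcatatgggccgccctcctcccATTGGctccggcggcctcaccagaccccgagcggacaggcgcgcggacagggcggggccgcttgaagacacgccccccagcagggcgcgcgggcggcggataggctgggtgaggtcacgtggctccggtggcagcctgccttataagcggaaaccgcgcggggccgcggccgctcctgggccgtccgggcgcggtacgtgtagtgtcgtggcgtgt
Cyp51, chr5:4104698-4104947, minus strand: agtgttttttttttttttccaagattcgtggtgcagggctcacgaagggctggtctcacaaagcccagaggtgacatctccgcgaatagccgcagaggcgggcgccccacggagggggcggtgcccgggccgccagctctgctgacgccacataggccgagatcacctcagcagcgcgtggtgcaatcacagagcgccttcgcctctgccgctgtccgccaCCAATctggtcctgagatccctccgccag
The Hmgcs1 window held 1 sterol element and 3 CCAAT boxes, and each of the other windows held 1 CCAAT box and 0 sterol elements in these letters. Of the 17 list members with a window, 1 held the sterol element, which is in 1.05% of all 32851 windows, and 16 held a CCAAT box, which is in 33.8%. A member counted when any of its windows matched, while the shares are over single windows. The CCAAT box was in 13 of the 14 members with a window that were called lower, and also in Ebp, Hsd17b7 and Tm7sf2, which did not pass. These are matches of letters, not binding sites.

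Single values are given for 21 of the 25 members, and some of these were named after their values were seen. The counts by step cover these 21 only. In the first arm of the pathway, from acetyl-CoA to farnesyl diphosphate, 7 of 7 of these enzymes fell. Hmgcs1, which makes HMG-CoA, stood at 211, 158, 285 and 229.5 CPM in control and 93.1, 86.5, 92.2 and 82.5 in H1H2H2 (log2 fold change -1.32 with SE 0.146, adjusted p = 0.00069). The highest H1H2H2 library lay well under the lowest control. Idi1, Mvd and Fdps, further along the pathway, fell with log2 fold changes of -1.31, -1.24 and -0.91 (adjusted p = 0.00839, 0.00667 and 0.00611). The smallest changes of this arm were those of Mvk, Pmvk and Acat2, at -0.57, -0.51 and -0.51 (adjusted p = 0.0248, 0.024 and 0.0216). The calls of Mvk and Pmvk were lost without any 1 of control 3, control 4 and H1H2H2 9 to 11 (without H1H2H2 11, adjusted p = 0.0762 and 0.0741), that of Pmvk also without control 2 and H1H2H2 9 (0.0592). The call of Acat2 was lost without control 3 or H1H2H2 11 and with sex in the model (adjusted p = 0.0551, 0.0586 and 0.055). Acat2 has a near-identical copy in Acat3 (97.7% identity), and Fdps and Hmgcs1 share 26.7% and 12.1% of their exon bases with other genes, so their counts carry that uncertainty.

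Squalene and lanosterol formation followed, with 3 of 3 enzymes lower. Sqle, squalene epoxidase, was 83.8, 63.5, 130.5 and 118 CPM in control and 35.9, 31.3, 38.6 and 31.4 in H1H2H2 (log2 fold change -1.53 with SE 0.195, adjusted p = 0.00187). Fdft1, squalene synthase, and Lss, lanosterol synthase, fell with log2 fold changes of -0.85 (SE 0.158) and -0.89 (SE 0.137) (adjusted p = 0.0087 and 0.00505); Fdft1 has a near-identical stretch in Gm6781 (97.4% identity). Among 8 enzymes from lanosterol to cholesterol, 5 fell and 3 did not pass. Cyp51, the lanosterol demethylase, was 87.9, 68.3, 113 and 104 CPM in control and 40.3, 26.3, 30.9 and 28.2 in H1H2H2 (log2 fold change -1.57 with SE 0.174, adjusted p = 0.00069). Msmo1, Nsdhl, Dhcr7 and Sc5d fell with log2 fold changes of -1.17, -0.78, -0.65 and -0.58 (adjusted p = 0.00507, 0.00824, 0.0136 and 0.0167). Hsd17b7, Tm7sf2 and Ebp gave -0.45, -0.40 and -0.23 and did not pass (adjusted p = 0.124, 0.136 and 0.121). Tm7sf2 and Fdft1 share 12.1% and 18.3% of their exon bases with other genes.

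Of 3 genes that sense or move sterol within the cell, 2 fell. Insig1, which holds the SREBP complex in the endoplasmic reticulum, was 55.5, 52.1, 82.9 and 81.5 CPM in control and 22.1, 29.3, 16.6 and 18.4 in H1H2H2 (log2 fold change -1.65 with SE 0.193, adjusted p = 0.000968). Every H1H2H2 library held less than any control library. Srebf2 itself fell with -0.45 (SE 0.0933, adjusted p = 0.0126). Stard4, which carries sterol between membranes, gave 0.37 (SE 0.163) and did not pass (adjusted p = 0.127). Lrp8, a receptor for lipoproteins and for the signal protein reelin, was chosen by its fold change and is not on the list; it stood at 15.6, 7.49, 11.5 and 9.53 CPM in control and 1.98, 3.17, 3.24 and 2.34 in H1H2H2 (log2 fold change -2.03 with SE 0.24, adjusted p = 0.00109).

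**Figure D2:**
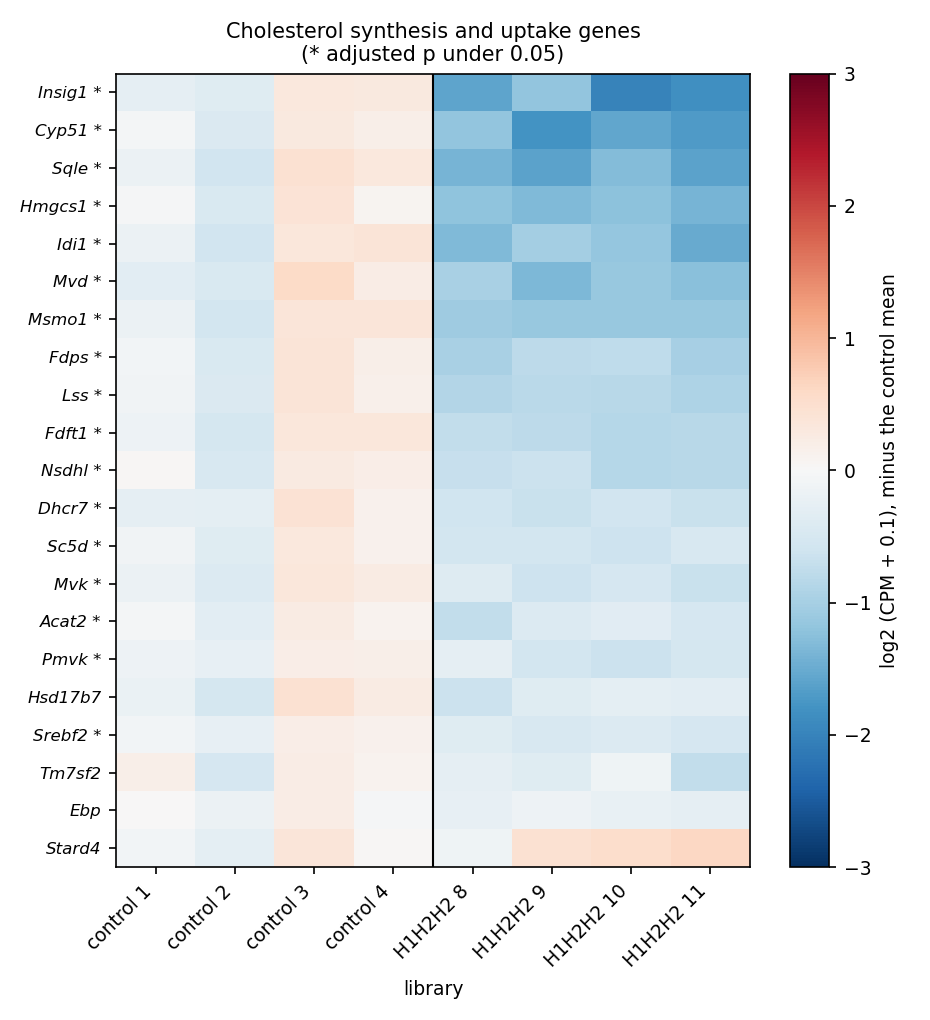
Heat map of 21 cholesterol genes (rows) in 8 libraries (columns); colour is log2 (CPM + 0.1) minus the mean of the 4 controls, and stars mark an adjusted p under 0.05. The 4 H1H2H2 columns are blue for 17 starred genes, and among the controls control 2 is mostly pale blue and control 3 warm; Stard4 at the foot is above the control mean in H1H2H2 9 to 11.

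In the H1CKO libraries, where Hand1 was low as well, the mean of the list stood at 0.072, 0.263 and 0.031 above the control mean. Hmgcs1 was 323, 369.5 and 295 CPM there. In the test between the mutant groups, 18 of the 25 members were lower and 3 higher in H1H2H2 than in H1CKO, against 33.3% of all genes lower and 31.8% higher. Hmgcs1 differed by a log2 difference -1.89, SE 0.156, adjusted p = 1.44e-06 and Cyp51 by a log2 difference -2.21, SE 0.185, adjusted p = 1.65e-06. Sc5d, Mvk and Pmvk, which fell against control, did not pass in this test (adjusted p = 0.838, 0.354 and 0.0785). T-Cre is named for H1CKO only, so the mutant groups differ in more than the Hand1 allele.

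Fatty acid synthesis and desaturation, which shares SREBP regulation, gave a mixed picture. Of 19 members, 7 were lower and 3 higher (median log2 fold change -0.241), and the lower count lay between 6 and 9 in all alternatives. Fads2, which desaturates polyunsaturated fatty acids, was 56.2, 43.4, 65.5 and 51.4 CPM in control and 27.6, 15.1, 17.3 and 13.5 in H1H2H2 (log2 fold change -1.56 with SE 0.201, adjusted p = 0.00187), with no overlap. Its partner Fads1 fell with a log2 change of -0.89 (SE 0.149), the desaturase Scd2 with -0.64 (SE 0.0994) and the elongase Elovl6 with -0.77 (SE 0.124) (adjusted p = 0.0063, 0.00508 and 0.00583). Fasn, fatty acid synthase, and Acly, which supplies cytosolic acetyl-CoA, fell by less, at -0.55 (SE 0.103) and -0.52 (SE 0.103) (adjusted p = 0.00884 and 0.0107). Dgat2, which makes triglyceride for storage, rose from 107, 108, 119 and 127 CPM in control to 142, 209, 177 and 203 CPM (log2 fold change 0.66 with SE 0.136, adjusted p = 0.0118); without control 2 and H1H2H2 9 its adjusted p was 0.082. Fads2 was also lower in H1H2H2 than in H1CKO (104.8, 126 and 131 CPM; log2 difference -2.72, SE 0.213, adjusted p = 1.14e-06).

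The genes of a sterol exporter went the other way. Abcg8 and Abcg5, the partners in a transporter that pumps sterols out of cells, rose together from low levels. Abcg8 was 0.284, 0.412, 0.372 and 0.331 CPM in control and 1.06, 1.43, 0.925 and 1.24 in H1H2H2 (log2 fold change 1.71 with SE 0.329, adjusted p = 0.00959), and Abcg5 was 1.85, 2.198, 1.71 and 2.05 CPM in control and 3.74, 3.29, 3.303 and 3.58 in H1H2H2 (log2 fold change 0.83 with SE 0.201, adjusted p = 0.0207). Neither gene overlapped between the groups, but without control 2 and H1H2H2 9 the adjusted p rose to 0.0538 and 0.0764, and that of Abcg5 was also above 0.05 without control 1, control 3 or H1H2H2 11 and with sex in the model (0.0629, 0.0614, 0.0606 and 0.0646). Apoa5, an apolipoprotein that acts in triglyceride handling, rose from 6.89, 4.602, 8.79 and 7.28 to 14.4, 14.8, 10.8 and 16.03 CPM (log2 fold change 1.02 with SE 0.197, adjusted p = 0.00959), and it shares 20.8% of its exon bases with another gene. These were 3 of the 4 members that rose among 26 lipoprotein genes tested, with 0 lower and a median of 0.0939; without H1H2H2 8 the count was 5 higher and 5 lower, without any 1 of control 1, control 3 and H1H2H2 11 it was 2 higher, and without control 2 and H1H2H2 9 it was 1 higher.

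**Figure D3:**
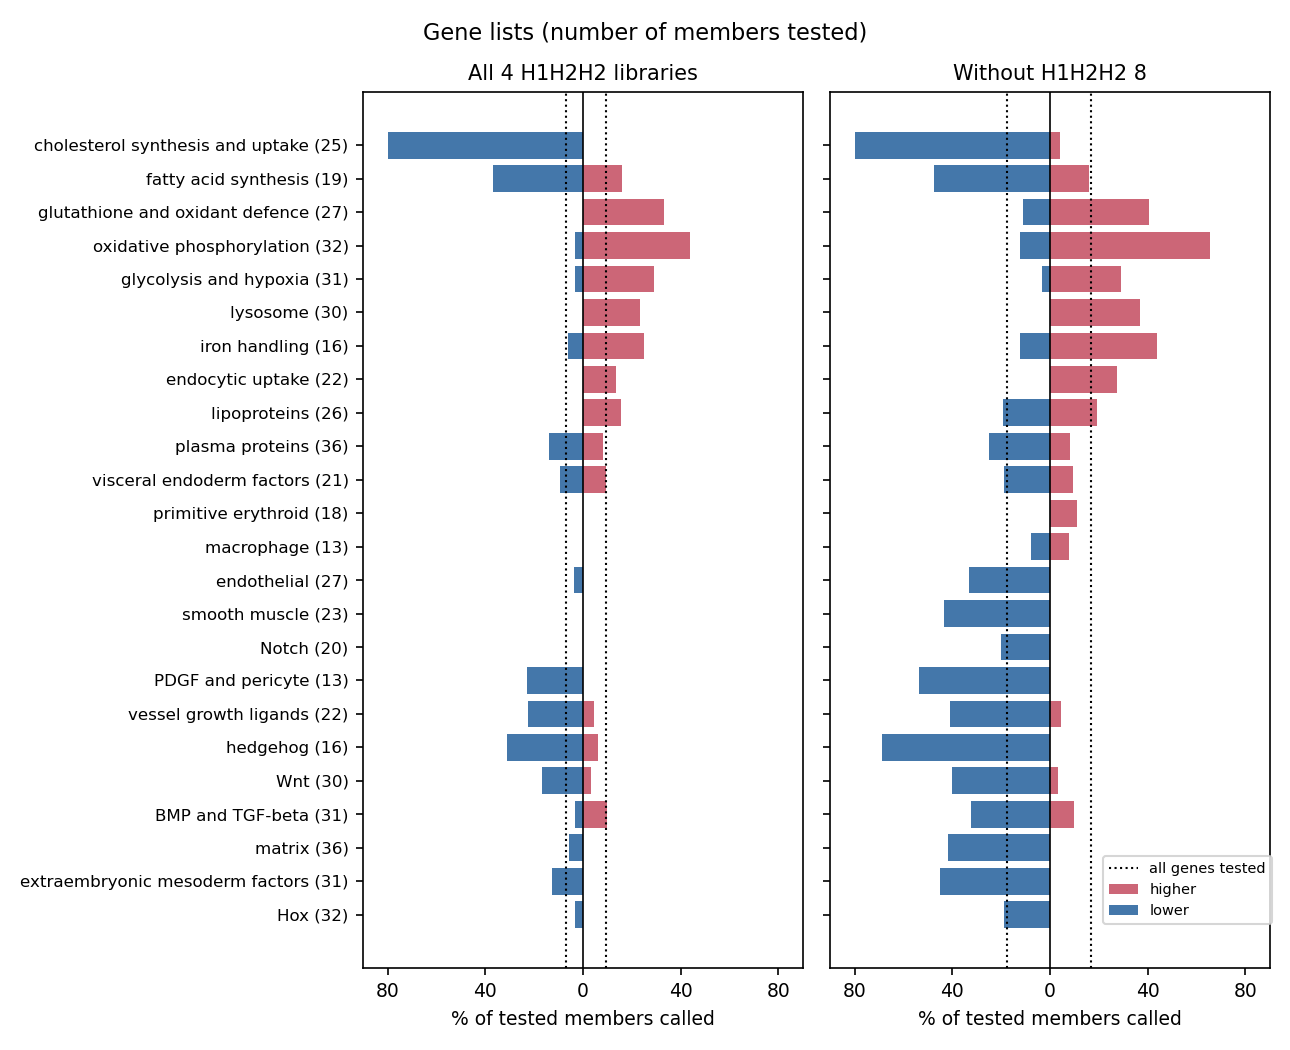
Share of each list's tested members (number in brackets) that passed higher (red, right) or lower (blue, left) in H1H2H2 against control, with all 4 H1H2H2 libraries and without H1H2H2 8; dotted lines give the shares of all genes tested. Cholesterol genes stand at 20 of 25 lower in both panels, metabolic lists extend to the right, and mesodermal lists extend to the left mainly without H1H2H2 8.

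The lists of energy metabolism, oxidant defence, iron and lysosomes each held more higher than lower members. Of 32 oxidative phosphorylation subunits, which make up the respiratory chain and ATP synthase, 14 were higher and 1 lower, against 9.49% of all genes higher, with a median log2 fold change of 0.272. Cox5a, a subunit of cytochrome c oxidase, was 71.2, 71.7, 74.2 and 77.8 CPM in control and 89.01, 154, 131 and 139 in H1H2H2 (log2 fold change 0.80 with SE 0.136, adjusted p = 0.00662). H1H2H2 8 was the lowest of its group but above the highest control. Cox5a shares 12.8% of its exon bases with another gene. Cox4i1, Sdhc and Uqcrfs1 rose likewise, with log2 fold changes of 0.48, 0.63 and 0.82 (adjusted p = 0.00662, 0.00667 and 0.00839), and their calls were lost without control 2 and H1H2H2 9 (adjusted p = 0.0505, 0.051 and 0.0504). The list count was 21 higher without H1H2H2 8 and 6 or 7 without any 1 of control 1 to 3, H1H2H2 9 and H1H2H2 11. It was 9 without H1H2H2 10 and 1 without control 2 and H1H2H2 9. H1H2H2 9 had the highest mean of the list, 0.401 over the control mean, against 0.071 in H1H2H2 8. Short genes as a whole stood higher in H1H2H2 9: the median log2 difference from control was 0.108 in the shortest 1 of 5 length classes and -0.171 in the longest there, and 0.0183 and -0.0178 in H1H2H2 8. The part of gene length in these counts was not tested.

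Of 27 glutathione and oxidant defence genes, 9 were higher and 0 lower (median 0.263). Gsto1, a glutathione transferase, was 63.9, 57.1, 62.3 and 70.1 CPM in control and 129, 134, 113 and 121 in H1H2H2 (log2 fold change 0.97 with SE 0.0849, adjusted p = 0.000149), and the call held in every alternative. Gsr, glutathione reductase, and Gstt3 rose with log2 fold changes of 0.50 (SE 0.0965) and 0.69 (SE 0.123) (adjusted p = 0.00988 and 0.00739; 0.0643 and 0.0504 without control 2 and H1H2H2 9). The list count was 11 higher and 3 lower without H1H2H2 8 and 5 or 6 higher without any 1 of control 2, control 3, H1H2H2 9, H1H2H2 10 and H1H2H2 11. Without control 2 and H1H2H2 9 it was 2. Gstt3 shares 13.6% of its exon bases with another gene.

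Iron handling had 4 of 16 members higher and 1 lower. Ftl1, the ferritin light chain that stores iron, was among the most abundant genes that changed: it was 947, 854, 914 and 1034 CPM in control and 1702, 2142, 1941 and 1933 in H1H2H2 (log2 fold change 1.04 with SE 0.0963, adjusted p = 0.000196). All 4 H1H2H2 libraries lay above all controls, and the call held in every alternative. Ftl1 has near-identical copies in the genome (99.6% identity to Ftl1-ps1), so its reads may be shared. It also shares 34.6% of its exon bases with another gene. Slc11a2, which carries iron across membranes, and Aco1, which doubles as an iron sensor, rose with log2 fold changes of 0.60 (SE 0.117) and 0.35 (SE 0.0721) (adjusted p = 0.0101 and 0.0121). Without control 2 and H1H2H2 9 these adjusted p were 0.0706 and 0.0866, and with sex in the model that of Aco1 was 0.0578. The iron count was 7 higher without H1H2H2 8 and 1 without control 2 and H1H2H2 9. Of 30 lysosomal genes, 7 were higher and 0 lower. Glb1, lysosomal beta-galactosidase, rose from 53.99, 50.5, 69.5 and 58.5 CPM to 104, 90.4, 95.9 and 107 CPM (log2 fold change 0.77 with SE 0.122, adjusted p = 0.00532), and H1H2H2 8 was raised like the others. Atp6v1h, a subunit of the pump that acidifies lysosomes, rose with a log2 change of 0.63 (SE 0.105, adjusted p = 0.00643). The lysosomal count was 11 without H1H2H2 8, and 3 without any 1 of control 1, control 2, H1H2H2 9 and H1H2H2 11. It was 4 without control 3, 2 without control 2 and H1H2H2 9, and 3 with sex in the model.

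Of 31 glycolysis and hypoxia genes, 9 were higher and 1 lower. The higher count was 9 without H1H2H2 8, 2 to 5 without any other single library, 1 with sex in the model and 0 without control 2 and H1H2H2 9. Slc2a3, the glucose transporter GLUT3, was 2472, 2040, 2651 and 2279 CPM in control and 2958, 5420, 4680 and 5023 in H1H2H2 (log2 fold change 0.94 with SE 0.194, adjusted p = 0.0122; 0.0783 without control 2 and H1H2H2 9). The mean of the list was 0.702 above the control mean in H1H2H2 9, and 0.12, 0.181 and 0.029 in H1H2H2 8, 10 and 11. Between the mutant groups, 21 of the 31 members were lower in H1H2H2 than in H1CKO, against 33.3% of all genes.

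Of 21 transcription factors of the visceral endoderm, 2 were higher and 2 lower, a share near that of all genes (4 lower without H1H2H2 8, and 1 higher and 1 lower without any 1 of control 1 and H1H2H2 9 to 11). Foxa1, a pioneer factor of endoderm, was 12.5, 6.39, 8.64 and 7.81 CPM in control and 2.82, 2.24, 4.03 and 4.13 in H1H2H2 (log2 fold change -1.42 with SE 0.237, adjusted p = 0.00624), and it held 22.9, 18.7 and 21.5 CPM in H1CKO. Creb3l3, a membrane-bound factor that switches on genes of lipid export and fasting metabolism in liver, rose from 63.4, 73.3, 62.2 and 71.9 to 109, 106, 91.2 and 107 CPM (log2 fold change 0.61 with SE 0.0952, adjusted p = 0.00507). Neither gene overlapped between the groups, and both calls held in every alternative. Over all genes, 9.49% were higher and 7.16% lower (16.9% and 17.6% without H1H2H2 8). Of 36 plasma protein genes, 3 were higher and 5 lower. The lower count was 9 without H1H2H2 8, 3 without control 2, 2 without control 3, H1H2H2 9 or H1H2H2 10, and 1 without control 1 or H1H2H2 11. The higher count was 1 without any 1 of control 1 to 3 and H1H2H2 9 to 11, and without control 2 and H1H2H2 9 the counts were 1 higher and 1 lower. Vtn, the adhesion protein vitronectin, fell from 12.1, 4.95, 4.54 and 7.74 to 2.89, 2.05, 2.38 and 1.65 CPM (log2 fold change -1.71 with SE 0.299, adjusted p = 0.00695), while Pros1, the anticoagulant protein S, rose with a log2 change of 0.49 (SE 0.0797, adjusted p = 0.00583). Afp, alpha-fetoprotein, the most abundant of the genes that passed, was 6749, 5859, 5926 and 6793 CPM in control and 7530, 9503, 8323 and 8493 in H1H2H2 (log2 fold change 0.42 with SE 0.119, adjusted p = 0.0355). Its call was lost in 10 of the 19 alternatives, among them the removal of any 1 library except H1H2H2 8 (without H1H2H2 9, H1H2H2 10 and H1H2H2 11, adjusted p = 0.0927, 0.0713 and 0.0926). Of 22 endocytic uptake genes 3 were higher and 0 lower, 6 without H1H2H2 8, 1 without H1H2H2 10, 0 without any 1 of control 1 to 3, H1H2H2 9 and H1H2H2 11, and 0 without control 2 and H1H2H2 9.

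Few vessel and smooth muscle genes passed with all 4 H1H2H2 libraries, and in lists this short such counts lie near the share of all genes. A negative log2 fold change was seen in 21 of 23 smooth muscle, 20 of 27 endothelial, 14 of 20 Notch and 7 of 16 arterial genes. The median over all genes was -0.0135, and the part of gene length in these signs was not tested. Of 27 endothelial genes 0 were higher and 1 lower, of 16 arterial genes 0 passed, of 20 Notch pathway genes 0 passed, and of 23 smooth muscle genes 0 passed, against 7.16% of all genes lower. By edgeR's test 1 arterial, 4 Notch and 6 smooth muscle genes had an unadjusted p under 0.05, and DESeq2 called 0, 2 and 3 and limma-voom 0, 0 and 1 of their members. Cdh5, the junction protein VE-cadherin, was 116, 144, 143 and 119 CPM in control and 133, 58.9, 93.5 and 81.7 in H1H2H2 (log2 fold change -0.51 with SE 0.189, adjusted p = 0.0824). H1H2H2 8 lay within the control range and the other 3 below it. Itga8, an integrin of smooth muscle, was 20.5, 19.5, 18.8 and 12.9 CPM in control and 15.2, 8.89, 11.4 and 9.56 in H1H2H2 (log2 fold change -0.67 with SE 0.214, adjusted p = 0.051). Without H1H2H2 8 the counts were 9 of 27 endothelial, 0 of 16 arterial, 4 of 20 Notch and 10 of 23 smooth muscle genes lower, with 0 higher in each, against 17.6% of all genes. There the adjusted p of Cdh5 was 0.00219 and that of Itga8 0.00945. Without control 2 and H1H2H2 9, 0 members of the endothelial, Notch and smooth muscle lists passed in either direction, while 2 arterial genes were higher and 0 lower, as also without H1H2H2 9 alone. The mean of the smooth muscle list was 0.242 in H1H2H2 8 and -0.649, -0.354 and -0.466 in H1H2H2 9 to 11, with controls from -0.208 to 0.272.

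Among the signalling lists, the Wnt, hedgehog and vessel ligand lists held more lower than higher members, where 7.16% of all genes were lower. The BMP and FGF lists held higher counts near the 9.49% of all genes, and no Notch gene passed. Of 30 Wnt pathway genes 5 were lower and 1 higher, and 27 of 30 had a negative log2 fold change (median -0.474). Rspo2 (mm10 chr15:43020795-43170818), a secreted amplifier of Wnt signalling, had 22 counts over the 4 controls and 0 over the 4 H1H2H2 libraries, at least 7.69-fold lower when 3 counts over the group are taken as the floor, and it stood at 5.97, 5.498 and 6.49 CPM in H1CKO. Rspo1, a related factor, fell with a log2 change of -1.25 (SE 0.289, adjusted p = 0.0176), a call lost without control 3, without H1H2H2 11 and without control 2 and H1H2H2 9 (adjusted p = 0.0502, 0.0567 and 0.052). Of 16 hedgehog pathway genes, 5 were lower and 1 higher. Boc, a co-receptor for hedgehog ligands, was 10.4, 11.8, 13.3 and 8.93 CPM in control and 7.34, 4.29, 6.67 and 4.47 in H1H2H2 (log2 fold change -0.96 with SE 0.189, adjusted p = 0.0103), and its partner Cdon and the signal transducer Smo fell with log2 fold changes of -0.45 (SE 0.0963) and -0.43 (SE 0.0989) (adjusted p = 0.0138 and 0.017). Without control 2 and H1H2H2 9 the adjusted p of Boc, Cdon and Smo was 0.0554, 0.0544 and 0.0531, and that of Cdon and Smo was 0.0506 and 0.0602 without H1H2H2 11 and 0.0519 and 0.0556 with sex in the model. Without H1H2H2 8 the lower counts were 12 of 30 Wnt and 11 of 16 hedgehog genes, against 17.6% of all genes. Without control 3 they were 1 and 3, without H1H2H2 11 they were 1 and 1, and without control 2 and H1H2H2 9 they were 1 and 0.

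Of 22 ligands that act on vessels, 5 were lower and 1 higher, against 7.16% of all genes lower, or 17.6% without H1H2H2 8. Apln, apelin, which guides growing vessels, rose from 8.24, 7.42, 6.701 and 6.15 CPM to 20.6, 17.5, 15.2 and 10.7 CPM (log2 fold change 1.17 with SE 0.229, adjusted p = 0.0103; 0.0573 without control 2 and H1H2H2 9). Angpt1, a ligand that steadies vessels through the receptor TIE2, was 25.1, 22.3, 26.5 and 22.2 CPM in control and 19.7, 9.88, 14.9 and 15.6 in H1H2H2 (log2 fold change -0.68 with SE 0.168, adjusted p = 0.0214). Its adjusted p was 0.0566, 0.057, 0.058 and 0.0583 without control 1, control 3, H1H2H2 10 and H1H2H2 11, and above 0.05 also with sex in the model and without control 2 and H1H2H2 9 (0.055 and 0.0544). Angpt1 shares 14.2% of its exon bases with another gene. The lower count of this list was 9 without H1H2H2 8, and it was 0 without any 1 of control 1, control 3 and H1H2H2 11, 1 without H1H2H2 10 and 2 without H1H2H2 9. Of 31 BMP and TGF-beta genes, 3 were higher and 1 lower, against 9.49% of all genes higher. Most of that list went down, with 23 of 31 log2 fold changes negative (median -0.265). Without H1H2H2 8, 10 were lower, and 0 were without any 1 of control 1 to 3 and H1H2H2 9 to 11; the higher count was 1 without any 1 of control 2, control 4 and H1H2H2 9 to 11 and with sex in the model. Of 23 genes of FGF signalling and its feedback, 2 were higher and 0 lower; without H1H2H2 8, 3 were higher and 3 lower, without any 1 of control 2 to 4 and H1H2H2 9 to 11, 1 was higher, and without control 2 and H1H2H2 9, 0. Id1, a bHLH inhibitor induced by BMP, rose from 44.6, 35.03, 41.2 and 42.6 to 55.4, 55.2, 56.1 and 57.6 CPM (log2 fold change 0.46 with SE 0.08, adjusted p = 0.00686), and the call held in every alternative.

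Among 36 matrix genes 2 were lower, against 7.16% of all genes, and 15 without H1H2H2 8, against 17.6%. The matrix count was 0 without H1H2H2 11, and 1 without any 1 of control 1 to 3, H1H2H2 9 and H1H2H2 10. Dcn, decorin, a small proteoglycan that binds collagen, was 55.1, 57.01, 53.01 and 50.6 CPM in control and 42.6, 20.02, 23.6 and 29.6 in H1H2H2 (log2 fold change -0.90 with SE 0.19, adjusted p = 0.0131; 0.0625 without control 2 and H1H2H2 9). Of 5 small leucine-rich proteoglycans, Dcn among them, 2 were lower and all 5 had a negative log2 fold change (median -0.9); 4 were lower without H1H2H2 8 and 1 without any 1 of control 1 to 3 and H1H2H2 9 to 11. Col6a3, a chain of collagen VI, fell with a log2 change of -1.04 (SE 0.234, adjusted p = 0.0162; 0.0549 without H1H2H2 11 and 0.0637 with sex in the model). In H1CKO, Dcn stood at 10.6, 13.7 and 14.3 CPM and Col6a3 at 10.6, 11.6 and 13.3 CPM, lower than in H1H2H2 (adjusted p = 0.000522 and 0.000333). Cav1, the coat protein of caveolae, rose from 2.84, 4.12, 3.13 and 3.904 to 5.15, 5.35, 9.31 and 8.597 CPM (log2 fold change 1.02 with SE 0.219, adjusted p = 0.0139), with a call that held in every alternative.

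Of 31 transcription factors of the extraembryonic mesoderm, Hand1 and Hand2 included, 4 were lower, against 7.16% of all genes, and 0 higher. Without H1H2H2 8, 14 were lower, against 17.6% of all genes. The mean of this list was 0.162 in H1H2H2 8 and -0.832, -0.657 and -0.79 in H1H2H2 9 to 11, with controls from -0.353 to 0.309. The lower count was 2 without control 2 or H1H2H2 10, 1 without any 1 of control 1, control 3, H1H2H2 9 and H1H2H2 11, and 1 without control 2 and H1H2H2 9. Of 32 Hox genes 1 was lower, with 30 of 32 negative and a median of -1; control 2 and control 4 themselves stood at 0.662 and -0.651 from the control mean of that list. The lower count was 6 without H1H2H2 8, 5 without control 4, 5 with DESeq2, and 0 without any 1 of control 1 to 3 and H1H2H2 9 to 11. Cell cycle genes had 6 of 32 higher and 2 lower (11 and 5 without H1H2H2 8; 1 higher without H1H2H2 11, control 1 or control 3, 2 without control 2, H1H2H2 9 or H1H2H2 10, and 0 without control 2 and H1H2H2 9). Ccnd1, cyclin D1, which drives entry into the cycle, was 58.8, 40.7, 49.8 and 44.4 CPM in control and 32.05, 20.2, 25.1 and 26.1 in H1H2H2 (log2 fold change -0.91 with SE 0.143, adjusted p = 0.00532), and the call held in every alternative. Ccnd1 shares 23.4% of its exon bases with another gene.

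**Figure D4:**
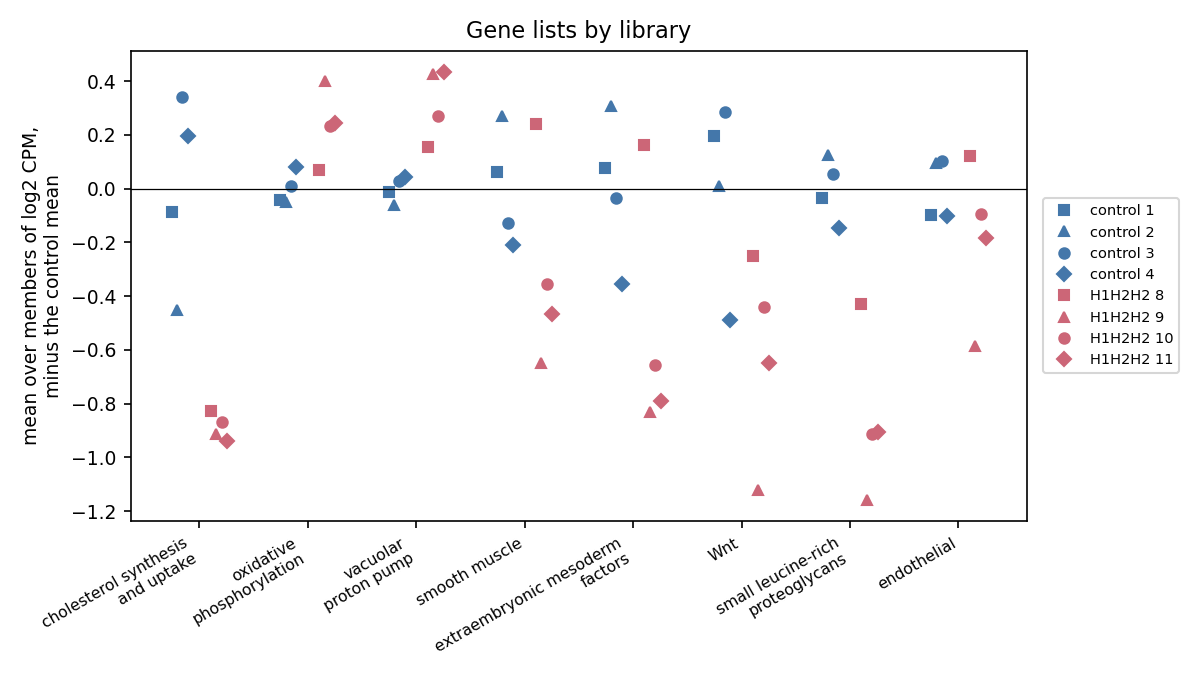
Mean over the tested members of log2 CPM (prior count 2) minus the mean of the 4 controls, for 8 lists and each of the 8 libraries (blue, control; red, H1H2H2). H1H2H2 8 (red square) sits with the other H1H2H2 libraries for cholesterol genes, at -0.828, and above them for smooth muscle genes, at 0.242, and for mesoderm factors, at 0.162; the vacuolar proton pump list was chosen after the values were seen.

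Erythroid genes differed widely between libraries of the same group, while the summed CPM of the macrophage markers ran from 586 to 727 in control and 538 to 636 in H1H2H2. Of 18 primitive erythroid genes and 13 macrophage genes, 0 passed in either direction by edgeR's test, 1 and 1 had an unadjusted p under 0.05, and DESeq2 and limma-voom each called 0 in both lists. Hbb-bh1, an embryonic globin, was 1004, 1667, 496 and 2217 CPM in control and 643, 4823, 3006 and 2661 in H1H2H2 (log2 fold change 1.05 with SE 0.561, adjusted p = 0.203). Control 3 and H1H2H2 8 were low, and their summed erythroid markers were 3060 and 3440 CPM against 5680 to 16300 in the other 6. The summed CPM of 27 endothelial markers was 1130 to 1350 in control and 802 to 1300 in H1H2H2, with 0 of the 27 at zero in all 8 libraries. Summed CPM of 23 cardiac markers was 54.8 to 247 in control and 43.1 to 89.5 in H1H2H2, with 4500 to 11700 in H1CKO.

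Some single genes differed by more, most of them in none of the lists. Cwc22 (mm10 chr2:77895653-77946356), a splicing factor, was 56.5, 61, 54.1 and 59.6 CPM in control and 632, 473, 469 and 905 in H1H2H2 (log2 fold change 3.42 with SE 0.195, adjusted p = 3.68e-06), and 53.2, 63.6 and 63.6 CPM in H1CKO. Eno1b, an enolase gene, was 55.3, 41.2, 55.8 and 53.3 CPM in control and 0.141, 0.808, 0.463 and 0.206 in H1H2H2 (log2 fold change -6.92 with SE 0.261, adjusted p = 5.71e-08), and its mean in H1CKO was 108 ± 13.7 CPM (SD, n = 3). Gstm6 (mm10 chr3:107938848-107943749), a glutathione transferase counted above among the oxidant defence genes, was 1.14, 0.275, 0.521 and 0.265 CPM in control and 6.85, 7.96, 10.2 and 7.703 in H1H2H2 (log2 fold change 3.88 with SE 0.358, adjusted p = 0.000196), and 0.314, 0.305 and 0.382 CPM in H1CKO. In each of these genes the 4 H1H2H2 libraries lay on one side of all 7 other libraries. Cwc22 (96.9% identity to Gm13691) and Eno1b (99.5% to Eno1) have near-identical copies, so how reads were split between copies is uncertain.

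Acp1 (mm10 chr12:30893326-30911612), a small phosphatase, was 22.9, 24.5, 22.6 and 25.6 CPM in control and 64.9, 108, 92.2 and 92.8 in H1H2H2 (log2 fold change 1.91 with SE 0.136, adjusted p = 3.39e-05). Haao, which opens the ring of 3-hydroxyanthranilate on the way from tryptophan to NAD, rose from 7.601, 8.998, 7.82 and 9.53 CPM to 48.9, 33.7, 22.7 and 31.02 CPM (log2 fold change 2.00 with SE 0.221, adjusted p = 0.00069). Bst2, tetherin, an interferon-induced protein that holds budding virus, rose with a log2 change of 1.61 (SE 0.247), and Vwa1, a matrix protein, with 1.98 (SE 0.306) (adjusted p = 0.00505 and 0.00505). H2-K1, a class I histocompatibility gene, was 8.595, 14.3, 9.61 and 7.94 CPM in control and 4.52, 4.601, 3.57 and 2.41 in H1H2H2 (log2 fold change -1.42 with SE 0.235, adjusted p = 0.00616). Bst2 and H2-K1 belong to a list of 16 inflammation and interferon genes, of which 1 was higher and 3 lower (5 lower without H1H2H2 8, and 1 without H1H2H2 11 and without control 2 and H1H2H2 9). Rpl22l1, a ribosomal protein, was 20.5, 20.8, 17.6 and 21.7 CPM in control and 23.1, 104.9, 78.8 and 86.8 in H1H2H2 (log2 fold change 1.86 with SE 0.336, adjusted p = 0.0076); H1H2H2 8 was nearest the controls, and the other 3 were far above. Abhd1 and Naip5 rose with log2 fold changes of 1.72 and 1.97 (adjusted p = 0.000843 and 0.0029), but Abhd1 shares 89.6% of its exon bases with Preb, and Naip5 has a near-identical copy in Naip6. Vwa1 and Acp1 share 25.2% and 14.6% of their exon bases with other genes.

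Among the genes that fell, Camta1, a calmodulin-binding transcription activator, was 24.3, 21.9, 24.6 and 19.4 CPM in control and 7.98, 5.97, 4.96 and 6.67 in H1H2H2 (log2 fold change -1.82 with SE 0.14, adjusted p = 4.78e-05). Slc9a5, a sodium-proton exchanger, was 29.8, 27.5, 27.03 and 27.99 CPM in control and 11.01, 7.15, 10.3 and 9.904 in H1H2H2 (log2 fold change -1.55 with SE 0.122, adjusted p = 5.39e-05). Genes were chosen here by fold change without overlap or by smallest p, so the gap between the groups follows from that choice. Sirpa, a receptor that restrains phagocytosis through CD47, and Adam22 fell with log2 fold changes of -1.15 (SE 0.115) and -2.02 (SE 0.24) (adjusted p = 0.000391 and 0.00109). Spon1, a matrix protein, was 29.5, 33.9, 17.2 and 10.7 CPM in control and 6, 2.92, 3.105 and 5.43 in H1H2H2 (log2 fold change -2.39 with SE 0.362, adjusted p = 0.00477), and Col9a1, a collagen chain best known from cartilage, fell with a log2 change of -2.40 (SE 0.444, adjusted p = 0.00838). Stx11 fell with -3.05 (SE 0.607, adjusted p = 0.0107), and it stood at 12.3, 12.2 and 0.763 CPM in H1CKO. Masp2, a complement protease, fell with -2.94 (SE 0.266, adjusted p = 0.000194) but shares 54.9% of its exon bases with Tardbp. Each of these single genes, from Cwc22 to Masp2, kept its call in every alternative, and such genes were preferred as examples. Within 5 Mb of Hand1, 16 of 127 genes passed (12.6%), against 16.7% elsewhere.

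**Figure D5:**
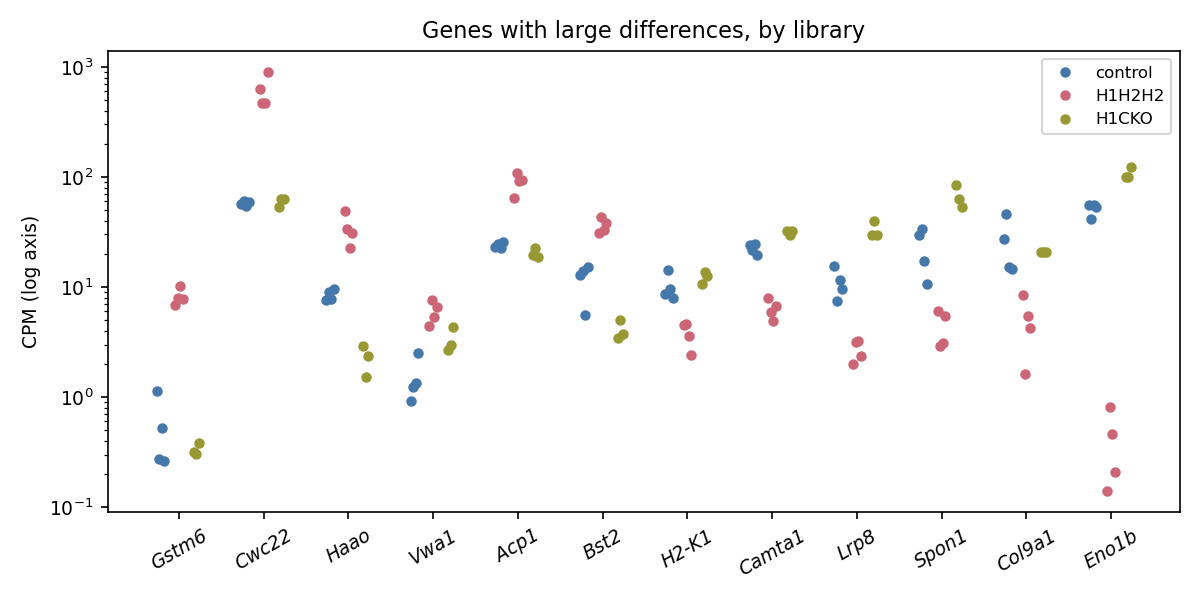
CPM on a log axis for 12 genes with large differences, each point 1 library (control, H1H2H2 and H1CKO). In Gstm6, Cwc22, Acp1, Camta1 and Eno1b the 4 H1H2H2 points lie apart from the 4 control points and the 3 H1CKO points alike.

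The authors' deposited table lists 1498 genes higher and 1470 lower in this comparison at an FDR under 0.05, and 2385 of the 2443 genes called here (97.6%) were among them with the same sign.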

How the data were processed

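Bulk mRNA-seq of E9.5 yolk sac was analysed from a table of raw counts per gene for 11 libraries, with libraries assigned to groups by their labels. Per the labels' protocols, tissue was kept in RNAlater, RNA came from the Roche High Pure RNA tissue kit and libraries from the KAPA mRNA HyperPrep kit. The genome build mm10 and the tools STAR 2.5.2b, featureCounts, Subread 1.5.1 and edgeR are named, without roles, per the submitters' processing notes. The authors deposited raw counts, log2 FPKM, log2 fold changes, other signed fold changes, p-values and FDR, per the file headers; only the counts were tested here, and the authors' FDR and log2 fold change were used only to count shared calls.

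Genes were filtered with filterByExpr and scaled with TMM factors, and the counts were fitted with edgeR 4.0.16's quasi-likelihood test (R 4.3.3) over all 11 libraries with 1 coefficient per group; Benjamini-Hochberg adjusted p under 0.05 was called, and the SE is the log2 fold change divided by the root of F. On simulated counts with 14399 genes, 47.8% of 1.5-fold, 79.1% of 2-fold and 98.5% of 4-fold changes were recovered for H1H2H2 against control. The library names give each library its own yolk sac number, except that control 1 and control 2 share theirs; where both came from 1 yolk sac, part of the spread among the controls is technical.

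Named genes were Hand1 and Hand2, the 15 strongest rises and the 15 strongest falls among called genes without overlap and with a mean of at least 5 CPM in the higher group, the 10 with the smallest adjusted p, the 10 with the highest mean, and up to 4 per list with the smallest p. Not all of these are printed. The further cholesterol genes, Acly, Dgat2 and Fasn were named after their values were seen. Members and lists were chosen with earlier results of these data known. Near-identical copies (95% identity over at least 300 bases and 30% of a transcript, BLAST+ 2.17.0) and exons shared by more than 10% are named beside a gene where its values are given. Some results for members of the lists are not reported here. Counts used no strand information that the labels state. List means by library are log2 CPM with a prior count of 2.

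Alternatives were other scalings and filters, DESeq2 1.42.0, limma 3.58.1 with voom, the 2 groups alone, sex in the model, globins and Rn45s left out, control 1 and 2 summed, and each library left out. Leaving out control 2 and H1H2H2 9 together was added after seeing the data.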

Additional observations from a re-analysis of the deposited data

Results flagged for a closer look

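In 180 sets of 4 libraries (90 genes in 2 groups), 3 held a library far from the other 3 by Dixon's test, and chance alone flags about 1 in 20 groups. Atp6v1h was 92.8 CPM in H1H2H2 8, against 128 in the nearest of the other H1H2H2 libraries. Creb3l3 was 91.2 CPM in H1H2H2 10, against 106 in the nearest of the others. Hsd17b7 was 39.2 CPM in H1H2H2 8, against 48.1 in the nearest of the others. In 2 of the 3, the library that stood apart was H1H2H2 8.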

How the results depend on the processing

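Of the 82 genes named in the text that passed, 58 passed in every alternative that tested them, 13 failed only without control 2 and H1H2H2 9, and none reversed. Genes whose call held were preferred as examples, so these counts do not describe all calls. No paired analysis was possible because the groups share no replicate numbers. The count of calls moved by more than 1.5 times in several settings. With sex in the model it was 808 (461 higher, 347 lower), with control 1 and 2 summed 1134 (658 and 476), and without control 2 and H1H2H2 9 it was 330 (144 and 186). At a fold of at least 1.5 it was 953 (385 and 568), and at an adjusted p under 0.01 it was 346 (214 and 132). Leaving out 1 library gave from 694 calls without H1H2H2 11 to 5055 without H1H2H2 8, with 430 to 2477 higher and 264 to 2578 lower. The cause of these shifts was not tested. DESeq2 called 3217, limma-voom 2549, and the 2 groups alone 1878; upper-quartile factors called 2413 with 44.9% of them higher, against 57% with TMM factors, and shifted the median of all genes to -0.0632 from -0.0135. Among the genes that did not pass, Hand2 changed sign with limma-voom (-0.0702), with sex in the model (-0.0798), without control 4 (-0.0324) and without H1H2H2 8 (-0.423), and ran from -0.423 to 0.2784 when 1 library was left out. The self-test recovered fewer small changes than large ones. Its simulated counts held no shift of a whole library, and a smaller share of genes was changed than passed here. Its recovery rates therefore need not hold for these data.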

Other observations

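Other gene groups, chosen after their values were seen, are given as values. Of 18 subunits of the vacuolar proton pump, which acidifies lysosomes and endosomes, 11 were higher and 0 lower in H1H2H2 (edgeR's quasi-likelihood test, adjusted p under 0.05), with a median log2 fold change of 0.42. Atp6v1b2 had a mean of 195 ± 15.9 CPM in control and 322 ± 63.4 in H1H2H2 (SD, n = 4 each; log2 fold change 0.72 with SE 0.131, adjusted p = 0.00793; 0.0544 without control 2 and H1H2H2 9). The count was 11 without H1H2H2 8, 6 without H1H2H2 11, 7 without control 2 and 7 without H1H2H2 9, and 1 without both of the last pair. Of 40 genes of fatty acid oxidation and PPAR targets, 15 were higher and 0 lower (18 without H1H2H2 8, 10 without H1H2H2 11, 4 without control 2 and H1H2H2 9). Slc27a4, which brings fatty acids into cells, had a mean of 50.2 ± 2.62 CPM in control and 84.1 ± 11.9 in H1H2H2 (SD, n = 4 each; log2 fold change 0.74 with SE 0.104, adjusted p = 0.00319), and its call held in every alternative. Etfb, which passes electrons from fatty acid oxidation to the respiratory chain, rose with a log2 change of 0.55 (SE 0.0861, adjusted p = 0.00524). It has a near-identical copy in Gm45233, and 58.2% of its exon bases are shared with overlapping genes.

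Of 42 proteasome genes, 11 were higher and 1 lower, with 23 and 3 without H1H2H2 8, 2 and 0 without H1H2H2 11, and 1 and 0 without control 2 and H1H2H2 9. Of 34 protocadherins, adhesion proteins best known from neurons, 11 were lower and 0 higher, and all 34 had a negative log2 fold change (median -0.829). Without H1H2H2 8 the lower count was 21, without H1H2H2 11 it was 5, and without control 2 and H1H2H2 9 it was 3. Pcdhga4 was 5.19, 4.19, 4.17 and 3.38 CPM in control and 1.62, 0.808, 2.18 and 1.86 in H1H2H2 (log2 fold change -1.39 with SE 0.261, adjusted p = 0.00893), and its call held in every alternative. Pcdhga4 shares 66.8% of its exon bases with other genes, Pcdhgb1 among them, and has a stretch identical to Pcdhgc4 (100% identity). Most of the 34 genes belong to this Pcdhg cluster, so their values may not be separate from one another. In H1CKO the protocadherin mean stood 1, 1.136 and 1.252 above the control mean, on the other side of control from H1H2H2 (-0.348, -1.659, -0.724 and -0.671). The H1CKO libraries also held more neural and somitic marker transcript, 308 to 343 summed CPM against 49.7 to 55.9 in control and 43.3 to 68.7 in H1H2H2. The part of those transcripts in the protocadherin difference was not tested.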
